A study of Mus musculus with 24 samples.

Results

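Quadriceps of mdx mice was compared with quadriceps of BL10 mice at 2 weeks of age, from 6 of the 24 arrays of a series that also covers 5 days, 3 weeks and 6 weeks. The arrays were chosen by their titles, which give 3 biological replicates labelled mdx and 3 labelled control. BL10 is the control inbred strain, with its own intact Dmd gene, and mdx mice carry a nonsense mutation in Dmd, the X-linked gene for dystrophin, in all their cells. Total RNA of dissected muscle was hybridised to Affymetrix mouse arrays, and the labels name no treatment and no sex. They do not say whether an array stands for 1 mouse or a pool. The p-values below thus measure the spread between samples within groups, pooled over all 24 arrays, which may in part be technical. With so few arrays precision is limited, and over all genes a strain difference had a median standard error of 0.225 (log2).

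Dystrophin links the actin cytoskeleton of the muscle fibre to a complex of membrane proteins, the dystroglycans, sarcoglycans and syntrophins, and through them to laminin outside the cell. Without it the fibre membrane tears during contraction, and mdx muscle enters rounds of necrosis, invasion by macrophages and regeneration from satellite cells, usually from about the time of weaning. At 2 weeks the muscle of a normal mouse is still growing: fast myosins replace developmental ones, oxidative and glycolytic enzymes rise, and myoblast proliferation declines. This age is generally placed before the main wave of necrosis.

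Values are log2(intensity + 16) after quantile normalization, with a floor of 4, and differences are mdx minus BL10 by label, each ± its standard error in limma (n = 3 arrays per group). Dmd itself serves as a check of the labels. On the brightest of its 4 probe sets the levels were 9.18, 10.03 and 10.08 in BL10 replicates 1, 2 and 3, and 7.73, 8.33 and 10.31 in mdx replicates 1, 2 and 3. The array labelled mdx replicate 3 was thus the highest of the 6, and the other 2 mdx arrays lay below every BL10 array. The mean difference was -0.98 ± 0.47 (limma adjusted p = 0.365) over all arrays and -1.74 without mdx replicate 3. The next brightest read 7.70, 9.08 and 9.49 in BL10 and 7.05, 7.70 and 9.80 in mdx, so the array labelled BL10 replicate 1 reached the level of mdx replicate 2. A further Dmd probe set read 7.84, 8.15 and 7.64 in BL10 and 7.32, 7.13 and 8.40 in mdx, again with mdx replicate 3 the highest. The remaining Dmd probe set stayed between 4.10 and 5.35 in all 6 arrays and was too dim to test.

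**Figure D1:**
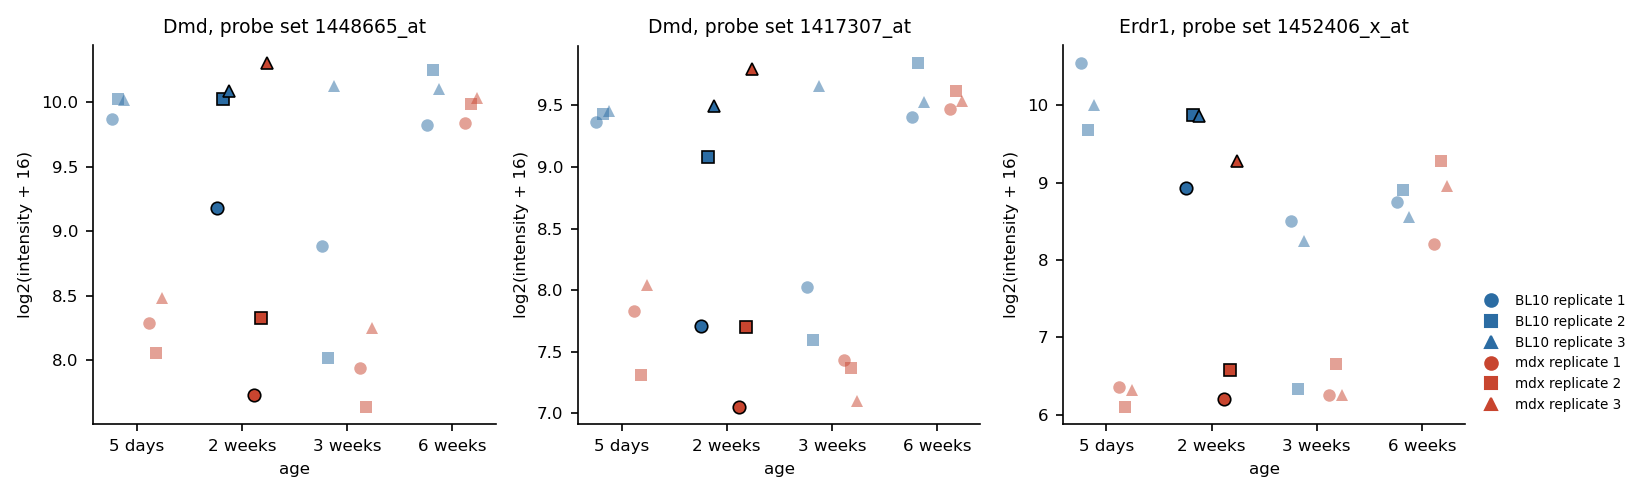
Level of 2 Dmd probe sets and of the brighter Erdr1 probe set, as log2(intensity + 16), in each of the 24 arrays against age; colour gives the labelled strain, shape the replicate number, and black outlines mark the arrays at 2 weeks. At 2 weeks the triangle labelled mdx replicate 3 reads 10.31 and 9.80 on the Dmd probe sets and 9.28 for Erdr1, among the BL10 arrays, while mdx replicates 1 and 2 lie with the mdx arrays of 5 days and 3 weeks.

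Erdr1, which lies in the pseudoautosomal region of the sex chromosomes, is a further marker of the same arrays, chosen after its values were seen. Its brighter probe set read 8.94, 9.88 and 9.87 in BL10 and 6.20, 6.58 and 9.28 in mdx, and mdx replicate 3 again lay with BL10. Its other probe set read 6.12, 5.84 and 6.22 in BL10 and 7.31, 6.67 and 7.0 in mdx, in the other direction. The labels of mdx replicate 3 also differ among themselves: its title, source and age give 2 weeks, and its description gives 3 weeks. Every array stayed in the group of its title, and the medians of gene lists and the differences of the genes it moves most are also given without mdx replicate 3.

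The arrays were also placed on the growth of normal quadriceps, by the 412 genes that differed between BL10 at 5 days and BL10 at 6 weeks by at least 2 on the log2 scale at an adjusted p under 0.05. On this axis 0% is the mean of BL10 at 5 days and 100% the mean of BL10 at 6 weeks. BL10 at 2 weeks lay at 44.2%, 39.7% and 44.6%. In mdx at 2 weeks, replicates 1 and 2 lay beside them at 42.5% and 48.0%, whereas replicate 3 lay at 72.6%, next to BL10 at 3 weeks replicates 1 and 3 at 78.2% and 76.2%. Over all genes, mdx replicate 3 correlated best with BL10 at 3 weeks replicate 3 (r = 0.975), mdx replicate 1 with mdx at 3 weeks replicate 1 (r = 0.988), and mdx replicate 2 with BL10 at 3 weeks replicate 2 (r = 0.978). These are correlations across genes, which are not independent. That last array, labelled BL10, lay at 41.4% and read 8.02 on the brightest Dmd probe set and 6.34 on the brighter Erdr1 probe set, where the array labelled mdx at 2 weeks replicate 3 lay at 72.6% and read 10.31 and 9.28. Whether these 2 samples were exchanged cannot be told from the labels, so every strain difference at 2 and 3 weeks is one by label. At 6 weeks all 3 arrays labelled mdx read 9.84, 9.99 and 10.04 on the brightest Dmd probe set, inside the BL10 range of 9.83 to 10.25. Mdx at 3 weeks replicate 1, at 45.5%, also lay with the arrays of 2 weeks. BL10 replicate 3 was closer to mdx replicate 2 (r = 0.976) than to BL10 replicates 1 and 2 (r = 0.942 and 0.960).

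**Figure D2:**
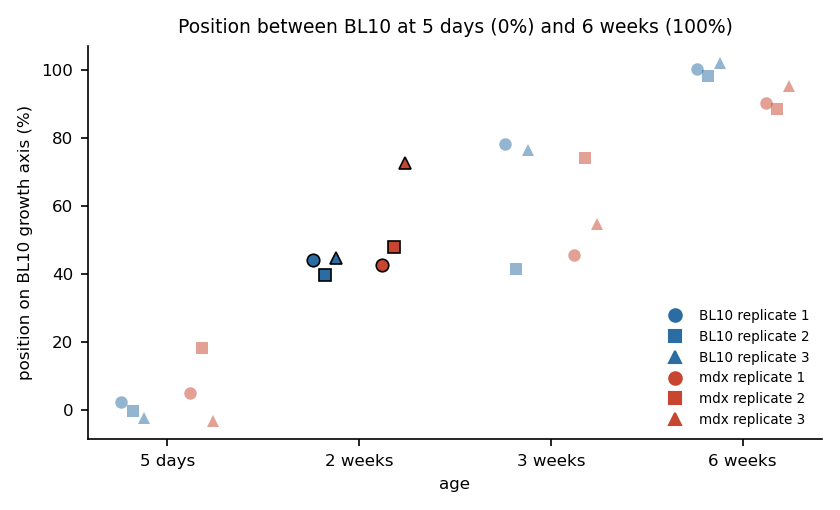
Position of each of the 24 arrays on the axis from BL10 at 5 days (0%) to BL10 at 6 weeks (100%), in percent, against age; colour gives the labelled strain and shape the replicate number. Of the 6 arrays at 2 weeks, 5 lie between 39.7% and 48.0%, and mdx replicate 3 lies at 72.6%.

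All 6 arrays carried skeletal muscle RNA: Ckm, Acta1, Mylpf and Tnnt3, which encode creatine kinase and parts of the contractile apparatus, read between 13.7 and 14.1. Signs of other tissue moved with single arrays. Ucp1, which marks brown fat, read 12.54, 10.29 and 10.59 in BL10 and 11.74, 11.91 and 4.23 in mdx, close to the floor in replicate 3. Neutrophil granule genes were high in mdx replicate 1, where Mmp9 read 10.83 against 5.82 to 6.53 in the other 5 arrays, and Mpo read 9.23 against 5.63 to 6.65. Xist, transcribed from the inactive X chromosome, read 8.0 in mdx replicate 2 and 4.83 to 5.14 elsewhere, while Y-linked Eif2s3y read 9.03 in that same array and 7.41 in BL10 replicate 1 against 8.87 to 9.66 in the other 4. The part of these signals in the results below was not tested. A covariate for sex, set by Eif2s3y, marked 1 array in all, BL10 at 5 days replicate 1, and so does not address the X- and Y-linked readings at 2 weeks. With it the counts of called genes were 0 for mdx against BL10 at 2 weeks, 6 for 2 weeks against 5 days and 0 for 3 weeks against 2 weeks, where the fits without it gave 0, 28 and 20.

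No gene passed an adjusted p of 0.05 for mdx against BL10 at 2 weeks in limma over 15000 genes (0% called). At an unadjusted p under 0.05 there were 2082 genes (13.9%), 1062 higher in mdx (7.08%) and 1020 lower (6.8%). With the values as deposited the split was 1538 higher and 717 lower, and with median centring it was 1711 and 592, so the balance of directions depends on the scaling. All 3 mdx arrays lay above all 3 BL10 arrays for 1051 genes (7.01%) and below them for 1009 (6.73%), and these shares are the background for the counts that follow. Leaving out mdx replicate 3 gave 1 called gene (0.00667%), Erdr1, leaving out BL10 replicate 3 gave 919 (6.13%), and weighting the arrays by their quality gave 537 (3.58%; 1.87% higher and 1.71% lower). At an adjusted p under 0.1 there were 11 genes higher (0.0733%) and 12 lower (0.08%).

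Among genes without overlap, those nearest to the threshold above BL10 included Isca1, Ghitm, Pdha1 and Got1. Isca1, which assembles iron-sulphur clusters, read 10.81, 10.81 and 11.31 in BL10 and 11.56, 11.48 and 11.77 in mdx, a difference of 0.63 ± 0.12 (limma adjusted p = 0.0929). Ghitm, an inner-membrane protein, read 10.998, 10.94 and 11.47 in BL10 and 11.72, 11.81 and 11.87 in mdx (0.66 ± 0.13). Pdha1, the catalytic subunit of pyruvate dehydrogenase, read 11.59, 11.75 and 12.17 in BL10 and 12.37, 12.49 and 12.49 in mdx (0.61 ± 0.12). In each of these 3 genes BL10 replicate 3 was the BL10 array closest to mdx, as it was for 50.5% of all genes. Got1, which carries reducing equivalents between cytosol and mitochondrion as part of the malate-aspartate shuttle, showed that most plainly: BL10 read 10.45, 10.40 and 11.47 and mdx 11.56, 11.68 and 11.80 (0.91 ± 0.20).

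Other genes above BL10 had further roles. Ank, a membrane exporter of pyrophosphate, had a difference of 1.29 ± 0.28, from 8.34, 8.38 and 9.42 in BL10 to 9.96, 9.78 and 10.27 in mdx. Atp6v1b2, a subunit of the lysosomal proton pump, read 8.23, 8.11 and 8.72 in BL10 and 9.47, 9.24 and 8.99 in mdx (0.88 ± 0.18). Ago4, an Argonaute protein of microRNA silencing, read 5.84, 5.91 and 5.93 in BL10 and 6.59, 6.65 and 7.25 in mdx (0.93 ± 0.19), with a close BL10 group. F3, tissue factor of blood clotting, lay between 5.48 and 5.96 in BL10 and between 6.14 and 6.63 in mdx (0.75 ± 0.16). Katnbl1 (0.95 ± 0.20) and Mtmr1, a phosphoinositide phosphatase (0.92 ± 0.20), completed the range.

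Below BL10, the gene nearest to the threshold was Khdrbs2, an RNA-binding splicing regulator, at 6.63, 6.70 and 6.54 in BL10 and 5.49, 5.81 and 5.85 in mdx (-0.91 ± 0.16, limma adjusted p = 0.0929). Uts2, the vasoactive peptide urotensin, read 7.46, 7.37 and 6.95 in BL10 and 6.00, 6.58 and 6.53 in mdx (-0.89 ± 0.17). Tmem242 lay within 10.10 to 10.27 in BL10 and 9.23 to 9.50 in mdx (-0.78 ± 0.15). Both groups were tight for this gene, a factor in the assembly of the mitochondrial ATP synthase. Klf7, a transcription factor, read 8.71, 8.93 and 8.28 in BL10 and 7.66, 7.69 and 7.82 in mdx (-0.92 ± 0.19). Rbm45, an RNA-binding protein, had a difference of -1.39 ± 0.28, with 10.59 in BL10 replicate 1 against 9.11 and 8.96 in the other 2 and 8.01 to 8.26 in mdx. The ribosomal gene Rps26 read 12.67, 12.48 and 12.12 in BL10 and 11.93, 11.95 and 11.79 in mdx (-0.53 ± 0.11), and Mrpl57, of the mitochondrial ribosome, differed by -0.68 ± 0.15.

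**Figure D3:**
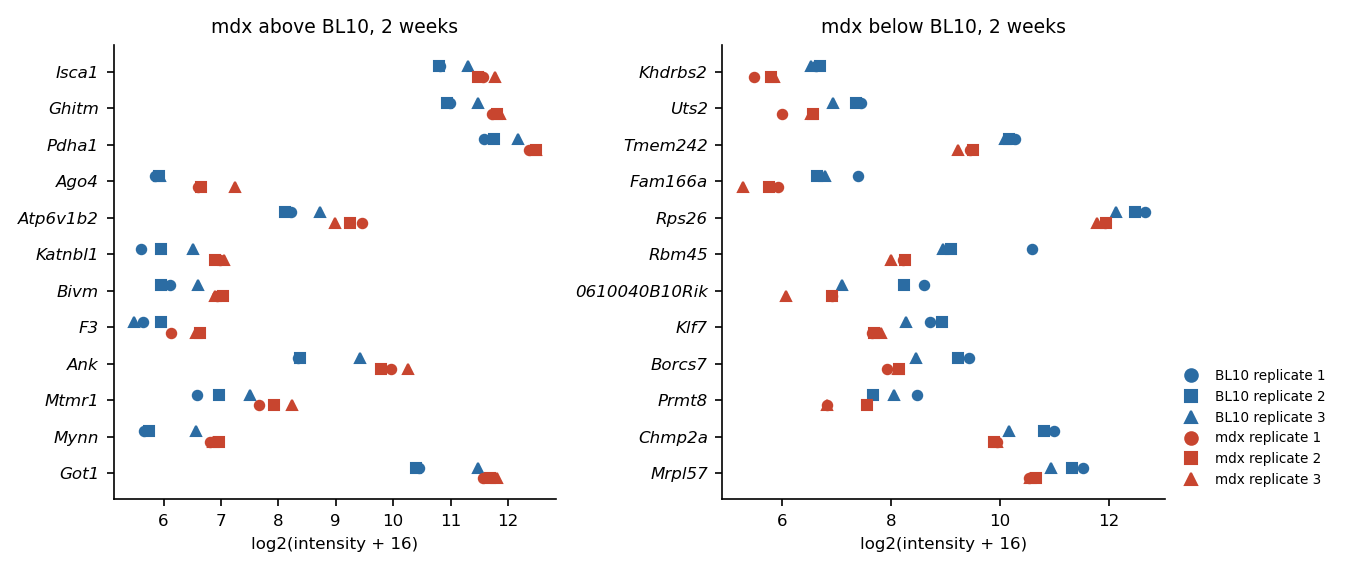
Level of the 12 genes above BL10 (left) and the 12 below BL10 (right) with the smallest p among genes whose groups do not overlap, as log2(intensity + 16), in the 6 arrays at 2 weeks; blue is BL10, red is mdx and shape is the replicate number. Their limma adjusted p lies between 0.0929 and 0.103, and the BL10 triangle, replicate 3, is often the BL10 point nearest to mdx, as for Got1 at 11.47 against 10.40 and 10.45. Over all genes, BL10 replicate 3 is the BL10 array nearest the mdx side in 50.5%.

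The partners of dystrophin at the membrane did not move together. Of 18 tested members of the dystrophin complex list, 1 lay above BL10 in all arrays, 2 lay below, and the median difference was -0.08 against -0.01 over all genes; it was 0.05 without mdx replicate 3 and 0.08 with the values as deposited. Sntb2, a syntrophin that binds dystrophin, read 6.98, 6.89 and 6.47 in BL10 and 6.42, 5.89 and 6.20 in mdx (-0.61 ± 0.24). Pomt1, which adds the first mannose to dystroglycan, was the other gene below, by -0.43 ± 0.26. Nos1, the neuronal nitric oxide synthase that the complex anchors, was the one above, at 6.04, 6.19 and 6.40 in BL10 and 6.43, 6.86 and 6.74 in mdx (0.46 ± 0.27), but it turned to -0.11 with an added constant of 1. The sarcoglycans Sgca (0.30 ± 0.27, or 0.17 without mdx replicate 3) and Sgcb (0.36 ± 0.21, or 0.21) and the dystrobrevin Dtnb (0.40 ± 0.19) overlapped between groups. Utrn, the autosomal relative of dystrophin that can stand in for it, read 9.95, 10.11 and 9.25 in BL10 and 9.71, 9.66 and 9.21 in mdx, a difference of -0.24 ± 0.22, or -0.09 without mdx replicate 3. One of its dimmer probe sets differed by 0.51, and the mean of its probe sets by 0.06.

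Glycolysis and respiratory chain genes reached an unadjusted p under 0.05 higher in mdx more often than genes in general. Among 22 glycolysis genes, 9 were higher and 0 lower at an unadjusted p under 0.05, against 7.08% and 6.8% of all genes, and the median difference was 0.32 with mdx replicate 3 and 0.34 without it. Several list medians were larger on other scales, where the median of all genes was 0.04 with the values as deposited and 0.07 with median centring: glycolysis then had 0.50 and 0.53. Aldoa, the muscle aldolase, read 12.99, 13.27 and 13.77 in BL10 and 13.82, 13.82 and 13.88 in mdx (0.50 ± 0.13, limma adjusted p = 0.121). Hk2, the muscle hexokinase, read 10.05, 9.60 and 10.46 in BL10 and 10.55, 10.62 and 11.03 in mdx (0.69 ± 0.21). Phka1, a regulatory subunit of the kinase that starts glycogen breakdown, had the largest difference of the list's leading genes, 1.15 ± 0.29, from 9.70, 10.30 and 10.99 in BL10 to 10.98, 11.37 and 12.11 in mdx. Tpi1 (0.52 ± 0.15) and Pkm (0.46 ± 0.14), triose phosphate isomerase and pyruvate kinase, followed. Among the 22 genes, Aldoa and Hk2 were the 2 whose groups did not overlap, where 7.01% of all genes lay above BL10 in every array. In all 5 genes named here BL10 replicate 3 was the BL10 array nearest to mdx, as it was for 50.5% of all genes.

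The respiratory chain had a median that moved more with the scaling. Of 31 genes, 7 were higher and 0 lower at an unadjusted p under 0.05, 4 had all mdx arrays above BL10, and the median difference was 0.12, or 0.13 without mdx replicate 3. It was 0.33 with the values as deposited and 0.36 with median centring. Sdha, of succinate dehydrogenase, read 11.62, 11.64 and 12.10 in BL10 and 12.32, 12.38 and 12.29 in mdx (0.55 ± 0.13, limma adjusted p = 0.104). Atp5a1, of ATP synthase, read 12.39, 12.48 and 13.17 in BL10 and 13.24, 13.27 and 13.17 in mdx (0.55 ± 0.14). Both depended on the probe set: with probe sets averaged per gene Sdha differed by -0.06 and Atp5a1 by -0.20. Uqcrfs1, the iron-sulphur subunit of complex III, differed by 0.29 ± 0.08 and Ndufs1, of complex I, by 0.42 ± 0.15.

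Fatty acid oxidation rested on which mdx arrays were counted. Its 20 genes had a median difference of 0.22, and of 0.54 without mdx replicate 3 (0.45 as deposited and 0.48 median centred, with all arrays), with no gene whose groups did not overlap. At an unadjusted p under 0.05, 2 of the 20 were higher and 0 lower, against 7.08% and 6.8% of all genes. Cd36, the fatty acid transporter, read 10.73, 10.64 and 11.04 in BL10 and 11.91, 11.92 and 10.93 in mdx (0.79 ± 0.36). Acadm, an acyl-CoA dehydrogenase, read 11.87, 11.56 and 11.61 in BL10 and 12.38, 12.35 and 11.76 in mdx (0.49 ± 0.22). In both genes mdx replicates 1 and 2 lay above every BL10 array and replicate 3 lay within or next to the BL10 range. The list mean read 11.60, 11.20 and 11.24 in BL10 and 11.92, 11.97 and 10.81 in mdx, so for the list mdx replicate 3 lay below every BL10 array.

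**Figure D4:**
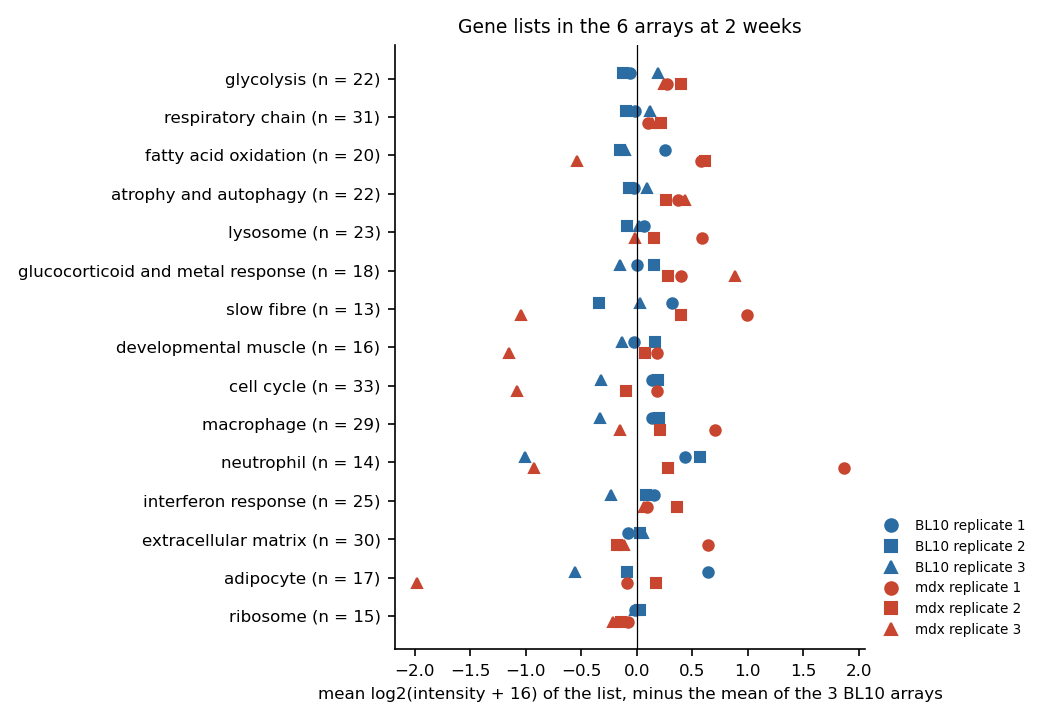
Mean log2(intensity + 16) of 15 gene lists in each of the 6 arrays at 2 weeks, relative to the mean of the 3 BL10 arrays (vertical line at 0); n is the number of genes tested per list, blue is BL10, red is mdx and shape is the replicate number. All red points lie to the right of all blue ones for glycolysis, atrophy and autophagy, and glucocorticoid and metal response, and to the left for ribosome. The red triangle, mdx replicate 3, stands to the left of the other 5 points for the adipocyte, developmental muscle, cell cycle, slow fibre, fatty acid oxidation and ribosome lists.

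Genes of protein breakdown and autophagy lay higher in mdx more often than the background. Of 22 genes, 9 had all mdx arrays above all BL10 arrays, 0 had them below, and the median difference was 0.29, or 0.26 without mdx replicate 3. Sqstm1, the autophagy receptor p62, read 10.15, 10.01 and 11.07 in BL10 and 11.17, 11.17 and 11.49 in mdx (0.87 ± 0.28, limma adjusted p = 0.166). Bnip3, a mitophagy receptor, read 10.26, 10.37 and 10.95 in BL10 and 11.54, 11.45 and 11.43 in mdx (0.94 ± 0.34). Fbxo30, a ubiquitin ligase of muscle loss, lay at 6.41 to 6.70 in BL10 and 7.06 to 7.14 in mdx (0.60 ± 0.22). Fbxo32, the ligase atrogin-1, read 7.21, 7.53 and 8.20 in BL10 and 9.16, 8.77 and 8.52 in mdx (1.17 ± 0.66). Its groups did not overlap either, with a standard error larger than those of the other 3 genes.

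Of 23 lysosomal genes, 5 had all mdx arrays above BL10 and 0 below, with a median of 0.19, or 0.33 without mdx replicate 3. With all arrays it was 0.31 as deposited and 0.33 median centred. Ctsb, the protease cathepsin B, read 11.24, 11.31 and 11.81 in BL10 and 12.01, 11.93 and 11.90 in mdx (0.50 ± 0.16). Lamp1, a lysosomal membrane protein, differed by 0.22 ± 0.09, and Hexa, a hexosaminidase, by 0.56 ± 0.22 with most of that in mdx replicate 1, at 10.34 against 9.59 and 9.37.

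Genes that respond to glucocorticoids or metal ions had a median difference of 0.48 over 18 genes, or 0.44 without mdx replicate 3, with 7 above BL10 in every array and 0 below. Fkbp5, a co-chaperone of the glucocorticoid receptor and one of its best known targets, read 5.51, 6.07 and 6.13 in BL10 and 7.13, 6.77 and 9.07 in mdx (1.75 ± 0.72, limma adjusted p = 0.279). Zbtb16, a transcription factor, read 9.73, 10.18 and 9.74 in BL10 and 10.41, 10.64 and 11.56 in mdx (0.99 ± 0.40). For both, mdx replicate 3 was the highest array by some distance, and without it their differences were 1.05 and 0.64. Mt1, a metallothionein, read 9.58, 8.82 and 8.11 in BL10 and 10.29, 9.89 and 9.80 in mdx (1.16 ± 0.65). The same list had a median of 1.68 at 5 days and 0.30 at 3 weeks. At 5 days its mean read 7.98, 7.91 and 7.82 in BL10 and 8.68, 11.04 and 9.09 in mdx, by far the highest in mdx replicate 2. The ages of 5 days and 3 weeks share no array with 2 weeks, and the difference between medians was not tested.

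Of 15 oxidative stress genes, 5 lay above BL10 in all arrays and 1 below, with a median of 0.15. Nqo1, a quinone reductase, lay at 5.52 to 5.68 in BL10 and read 6.15, 6.15 and 7.34 in mdx (0.94 ± 0.30, or 0.54 without mdx replicate 3). Gpx3, a secreted glutathione peroxidase, read 9.31, 8.71 and 8.50 in BL10 and 10.18, 9.91 and 9.62 in mdx (1.06 ± 0.44). Txn1, thioredoxin, was the gene below, at 11.57, 11.78 and 11.21 in BL10 and 11.10, 11.10 and 10.94 in mdx (-0.47 ± 0.15). Among 22 chaperone and unfolded protein genes, 3 lay above BL10 in all arrays and 19 had a positive difference, as did 49.2% of all genes, with a median of 0.21. Hsp90b1, the chaperone of the endoplasmic reticulum, differed by 0.49 ± 0.21.

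Of 15 ribosomal protein genes, 6 had all mdx arrays below BL10 and 0 above, and the median was -0.18, or -0.10 without mdx replicate 3. The sign of that median depends on the scaling: it was 0.02 with the values as deposited and 0.05 with median centring. Relative to the median of all genes it was -0.17 on the quantile scale and -0.03 on both others. Rpl27 read 12.76, 12.74 and 12.59 in BL10 and 12.35, 12.49 and 12.36 in mdx (-0.30 ± 0.08, limma adjusted p = 0.121), Rps18 differed by -0.34 ± 0.11 and Rpl11 by -0.31 ± 0.11.

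The contractile apparatus differed in few genes. Among 18 fast fibre genes the median was 0.14, or 0.07 without mdx replicate 3, and no gene separated the groups. With all arrays it was 0.24 as deposited and 0.27 median centred. Actn3, the fast-fibre actinin, read 13.06, 13.16 and 13.79 in BL10 and 13.61, 13.75 and 13.96 in mdx (0.44 ± 0.14), and Casq1, the calcium store of fast fibres, differed by 0.39 ± 0.14. The slow fibre list split the mdx arrays: its mean read 11.10, 10.45 and 10.82 in BL10 and 11.78, 11.19 and 9.74 in mdx, and its median difference was 0.12, or 0.66 without mdx replicate 3. Myh7, the slow myosin, read 12.46, 11.34 and 8.09 in the mdx arrays, and its difference was 0.16 with replicate 3 and 1.43 without it. Mybpc1, slow myosin-binding protein C, did not follow that pattern, at 11.80, 11.72 and 12.62 in BL10 and 12.89, 12.71 and 12.38 in mdx (0.61 ± 0.20).

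Genes of immature muscle lay lower in the labelled mdx group, by a margin that mostly came from replicate 3. The 16 developmental muscle genes had a median of -0.28, and of -0.05 without mdx replicate 3, with 3 below BL10 in every array and 1 above. Mymk and Mymx, which encode the fusion proteins myomaker and myomixer, were 2 of the 3. Mymk read 8.64, 8.28 and 8.91 in BL10 and 7.72, 8.08 and 6.29 in mdx (-1.25 ± 0.57), and Mymx 7.16, 7.61 and 7.54 in BL10 and 6.94, 6.69 and 5.04 in mdx (-1.21 ± 0.55). Without replicate 3 their differences were -0.71 and -0.62. Ankrd1, a stretch-induced ankyrin repeat protein, was the gene above, at 5.53, 6.25 and 6.13 in BL10 and 7.56, 6.36 and 7.60 in mdx (1.20 ± 0.55). The third gene below, the embryonic cardiac troponin Tnnt2, differed by -0.80 ± 0.53, or -0.40 without replicate 3.

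The 33 cell cycle genes had a median of -0.36, which became 0.02 without mdx replicate 3. Of the 33, 2 lay below BL10 in every array, near the 6.73% of all genes that did. The 2 genes below BL10 in every array were Mcm3, a replication helicase subunit, at 7.18 to 7.46 in BL10 and 6.77, 6.74 and 7.03 in mdx (-0.48 ± 0.16), and Ccnd1, cyclin D1, at 9.96, 9.90 and 9.42 in BL10 and 9.18, 9.30 and 8.18 in mdx (-0.87 ± 0.40, or -0.52 without mdx replicate 3). Of 20 myogenic regulators, 1 separated the groups, below BL10 as did 6.73% of all genes. It was Itga7, a laminin receptor of muscle fibres, which read 9.74, 9.43 and 9.57 in BL10 and 9.02, 9.26 and 8.88 in mdx (-0.52 ± 0.23). Myog, myogenin, read 9.85, 10.06 and 10.34 in BL10 and 9.94, 9.14 and 8.51 in mdx (-0.89 ± 0.38, or -0.55 without mdx replicate 3). Pax7, the marker of satellite cells, differed by -0.63 ± 0.31, with the BL10 replicate 3 value of 6.52 inside the mdx range.

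Calcium signalling and synaptic genes gave single differences. Rcan1, an inhibitor of calcineurin that is itself induced by it, read 8.86, 8.30 and 8.92 in BL10 and 9.74, 9.27 and 10.10 in mdx (1.01 ± 0.35, limma adjusted p = 0.196). Camk2b, a calmodulin kinase, was lower by -0.47 ± 0.18, and Trpc1, a cation channel, higher by 0.52 ± 0.24 at a level of 4.79 to 5.75. Musk, the kinase that organises the neuromuscular junction, lay at 4.0, 4.69 and 5.22 in BL10 and at 5.75 to 5.83 in mdx (1.16 ± 0.52), with the lowest BL10 array at the floor. Of the 14 junction genes it was the one that separated the groups, where 7.01% of all genes lay above BL10 and 6.73% below.

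Macrophage and neutrophil genes did not separate the strains as a group at this age. In whole muscle, fewer cells of a type and less RNA per cell cannot be told apart. The 29 macrophage genes had a mean of 7.18, 7.25 and 6.72 in BL10 and 7.75, 7.26 and 6.90 in mdx. Of the 29, 2 lay above BL10 in every array, near the 7.01% of all genes that did. The median difference was 0.19, or 0.41 without mdx replicate 3, against 1.42 at 3 weeks. Mpeg1, a macrophage pore protein, read 5.09, 5.53 and 4.0 in BL10 and 7.02, 6.39 and 5.25 in mdx (1.35 ± 0.59). Lyz2, lysozyme, read 9.13, 9.21 and 8.83 in BL10 and 10.38, 9.46 and 9.21 in mdx (0.63 ± 0.28). Cx3cr1, a chemokine receptor of resident macrophages, went the other way, by -0.61 ± 0.27, or -0.33 without mdx replicate 3.

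Of 14 neutrophil genes, 12 had a positive difference, and the median was 0.41, or 1.09 without mdx replicate 3. Their mean read 7.01, 7.15 and 5.58 in BL10 and 8.45, 6.86 and 5.65 in mdx. No member separated the groups, and replicate 3 was the lowest array of both strains. Mmp9 and Mpo had differences of 1.41 ± 1.04 and 0.88 ± 0.75 over all arrays, of -0.19 and -0.15 without mdx replicate 1, and of 2.32 and 1.65 without mdx replicate 3. C5ar1, the receptor for a complement fragment on myeloid cells, separated the groups more evenly, at 5.15, 5.05 and 4.81 in BL10 and 6.37, 5.83 and 5.85 in mdx (1.01 ± 0.28, limma adjusted p = 0.132). Cd3e, a T cell receptor chain, read 4.0, 7.36 and 10.30 in BL10 and 9.04, 9.31 and 10.90 in mdx, a range within BL10 alone that covers the difference of 2.53 ± 0.90.

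Of 25 interferon response genes, 17 had a positive difference and 8 a negative one. Their mean read 6.86, 6.79 and 6.47 in BL10 and 6.80, 7.07 and 6.78 in mdx, so the list mean overlapped between groups. Among the 25, 9 had all mdx arrays above BL10 and 0 below, against 7.01% and 6.73% of all genes, with a median of 0.25, or 0.27 without mdx replicate 3, while only 1 reached an unadjusted p under 0.05. Irgm1, an interferon-induced GTPase, lay at 7.17 to 7.40 in BL10 and 7.69 to 7.96 in mdx (0.59 ± 0.27). Irf9, part of the transcription factor that interferon activates, lay at 6.12 to 6.26 in BL10 and 6.54 to 6.76 in mdx (0.44 ± 0.24). Their differences at 3 weeks were 1.08 and 1.01. Lif, a cytokine induced in injured muscle, lay below, at 5.52, 5.94 and 6.02 in BL10 and 5.27, 4.84 and 4.74 in mdx (-0.88 ± 0.26).

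Matrix genes had a median of 0.11 over 30 genes, or 0.24 without mdx replicate 3 (0.29 as deposited and 0.31 median centred, with all arrays). In every array 0 lay below BL10 and 2 above, against 6.73% and 7.01% of all genes. The 2 above were Mgp, matrix Gla protein (0.39 ± 0.19), and Lum, the proteoglycan lumican. Lum read 10.31, 10.85 and 10.96 in BL10 and 11.70, 11.31 and 11.03 in mdx (0.64 ± 0.38). Thbs1, thrombospondin, read 6.37, 6.38 and 7.32 in BL10 and 8.18, 7.19 and 7.61 in mdx (0.97 ± 0.37). Timp1, an inhibitor of matrix proteases, read 5.86 to 6.09 in BL10 and 8.67, 6.21 and 7.05 in mdx (1.30 ± 0.54). Plau, the plasminogen activator urokinase, lay at 9.82, 7.85 and 7.95 in BL10 and 7.27, 6.90 and 7.62 in mdx (-1.28 ± 0.53). The growth factor Tgfb2 differed by -0.74 ± 0.27. These 3 genes belong to the list of 18 matrix remodelling genes, of which 2 lay above BL10 in every array and 2 below, against 7.01% and 6.73% of all genes. Prg4, lubricin of joints and tendon sheaths, had a difference of 2.95 ± 0.82 (limma adjusted p = 0.131), from 5.37, 5.64 and 6.41 in BL10 to 10.72, 6.72 and 8.82 in mdx. Comp, a cartilage and tendon matrix protein, was high in the same mdx arrays, at 9.72 and 8.83 in replicates 1 and 3 and 5.69 in replicate 2, against 6.33 to 7.57 in BL10. The 15 tendon genes had a median of 0.29, and of -0.09 without mdx replicate 3, with 10 positive differences. Among them 1 gene lay above BL10 in every array, near the 7.01% of all genes that did. Tnmd, tenomodulin of tendon cells, overlapped, at 10.17, 10.45 and 10.80 in BL10 and 10.11, 8.45 and 10.59 in mdx (-0.76 ± 0.60). The list was lowest in mdx replicate 2, and its part in the values of Prg4 and Comp was not tested.

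Fat genes depended on mdx replicate 3. The 17 adipocyte genes had a median of -0.35, and of 0.30 without mdx replicate 3. In that array the list mean was 7.37, against 8.79 to 9.995 in BL10 and 9.27 and 9.53 in the other mdx arrays. Retn, the adipocyte hormone resistin, nevertheless lay below BL10 in all 3 mdx arrays, at 6.23, 6.07 and 7.06 against 8.84, 9.43 and 7.90 (-2.27 ± 0.74, limma adjusted p = 0.172). Scd1, the desaturase that makes monounsaturated fatty acids, behaved alike, at 11.47, 11.55 and 11.41 in BL10 and 10.17, 10.04 and 9.92 in mdx (-1.44 ± 0.54). Adipoq, adiponectin, overlapped, at 11.87, 11.65 and 10.18 in BL10 and 10.81, 10.997 and 8.61 in mdx (-1.09, or -0.33 without mdx replicate 3).

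Calls appeared when BL10 replicate 3 was left out or when arrays were weighted by limma's estimate of their quality. The weights of BL10 replicates 1, 2 and 3 were 0.483, 1.64 and 0.393, and those of mdx 0.715, 1.57 and 0.487. Both settings shared 461 genes, 245 higher in mdx (1.63% of all genes) and 216 lower (1.44%). In 454 of the 461 (98.5%) BL10 replicate 3 was the BL10 array nearest the mdx side, where 50.5% of all genes had it so. The choice of settings largely fixes that share of the 461. Of the 461, 261 (1.74% of all genes) had groups without overlap over all 6 arrays. Among all genes, 7.01% lay above BL10 in every array and 6.73% below. The 461 were called by the strain difference in these same arrays, which largely fixes the number without overlap. Without BL10 replicate 3, 8 of the 22 glycolysis genes and 6 of the 31 respiratory chain genes were called higher (3.24% of all genes were), and 4 of the 15 ribosomal genes were called lower (2.89%). None of the interferon, macrophage or neutrophil genes was called in either setting.

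The largest of these genes showed how BL10 replicate 3 lay. Tsx, a testis-specific gene of the X-inactivation centre, read 4.0, 4.0 and 9.16 in BL10 and 7.58, 7.91 and 7.82 in mdx. Itgb1, the integrin chain of muscle attachment, read 7.22, 8.33 and 9.58 in BL10 and 9.87, 9.996 and 9.26 in mdx. Taf7, of the general transcription machinery, read 5.16, 6.10 and 7.69 in BL10 and 7.51, 7.99 and 7.53 in mdx. In these 3 genes BL10 replicate 3 lay within or above the mdx range. Others separated the strains in all 6 arrays. Lrrc2, a mitochondrial leucine-rich repeat protein of muscle, read 7.01, 7.36 and 7.83 in BL10 and 9.38, 8.74 and 9.40 in mdx (1.78 ± 0.45, limma adjusted p = 0.107). Sncg, gamma-synuclein, read 8.40, 8.07 and 6.89 in BL10 and 6.36, 5.67 and 5.65 in mdx (-1.89 ± 0.47). Sox11, a transcription factor of developing tissue, read 7.97, 8.38 and 6.69 in BL10 and 6.66, 5.96 and 6.09 in mdx (-1.44 ± 0.45).

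The strain difference at 2 weeks was next set against that at 5 days, in 1 limma model and with no array in common. It differed for 28 genes (0.187% of 15000), 20 of them more positive at 2 weeks (0.133%) and 8 more negative (0.0533%). For most of the 28 the difference was large at 5 days and small at 2 weeks. Myh4, the myosin of the fastest fibres, read 13.28, 13.14 and 12.83 in BL10 at 5 days and 11.10, 11.82 and 9.88 in mdx. At 2 weeks all 6 arrays lay between 13.77 and 13.91, so the strain difference moved from -2.15 to -0.03, by 2.12 ± 0.37 (limma adjusted p = 0.0226). These 2-week values lie near the top of the scale, which ends at 14.1 after quantile normalization and limits the size of a difference there. Rpl3l, a ribosomal protein found in striated muscle in place of its ubiquitous relative, moved from -2.09 to 0.18, by 2.26 ± 0.33 (limma adjusted p = 0.00592). Its mdx arrays read 9.71, 9.11 and 8.32 at 5 days and 11.91, 12.11 and 12.36 at 2 weeks.

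Other genes of mature muscle were among the 20. Aqp4, the water channel that the dystrophin complex anchors in fast fibres, read 11.03, 10.94 and 10.96 in BL10 and 9.61, 7.73 and 8.32 in mdx at 5 days, and 10.15 to 11.20 in both strains at 2 weeks. Its strain difference moved from -2.42 to 0.27, by 2.69 ± 0.45 (limma adjusted p = 0.0169). Ankrd23, a stretch-responsive protein of the sarcomere, moved by 2.11 ± 0.39, Abra, an activator of actin signalling in striated muscle, by 2.10 ± 0.41, and Eef1a2, the elongation factor of adult muscle, by 1.68 ± 0.33. Hspa1l, a chaperone, moved by 2.62 ± 0.48 and the small heat shock protein Hspb6 by 1.79 ± 0.31. Ckmt2, mitochondrial creatine kinase, moved less, by 0.86 ± 0.17. At 2 weeks Ckmt2 read 12.38, 12.30 and 12.54 in BL10 and 12.83, 12.77 and 12.98 in mdx, without overlap, whereas at 5 days mdx lay below.

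The 8 genes that went the other way were higher in mdx at 5 days. Egfbp2, a kallikrein protease, read 5.91 to 6.30 in BL10 and 8.67, 9.58 and 7.85 in mdx at 5 days, and its strain difference moved from 2.54 to -0.06 (limma adjusted p = 0.00592). Ahcy, which breaks down the product of methylation reactions, moved from 1.78 to -0.18, and Igfbp2, a binder of insulin-like growth factors, from 1.31 to -0.31. Cyp4f15, a cytochrome, moved from 2.47 to -0.66. At 5 days its BL10 arrays read 6.57, 4.19 and 4.0, so replicates 2 and 3 lay near or at the floor and the size of that move is uncertain. Khdrbs2 and Mrpl57 differed in kind, since their strain differences at 2 weeks were the larger. That of Khdrbs2 was 0.29 at 5 days and -0.91 at 2 weeks, and that of Mrpl57 was 0.37 and -0.68. Sry, the Y-linked sex-determining gene, read at the floor in all 3 BL10 arrays at 5 days and in mdx replicate 1 at 2 weeks, so that its move of -2.34 gives no fold. Without mdx replicate 3 at 2 weeks, 6 of the 28 stayed called: Aqp4, Banp, Egfbp2, Phyh, Rpl3l and Sry.

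**Figure D5:**
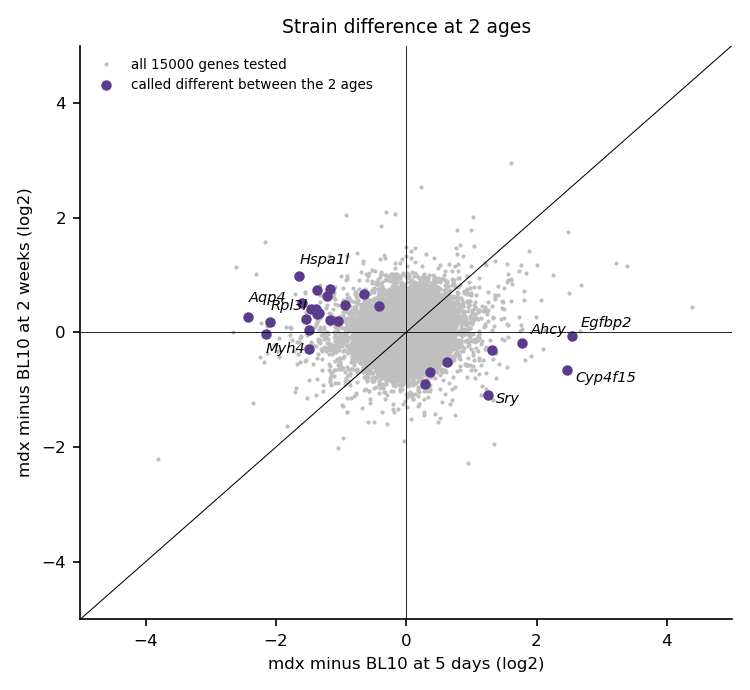
Difference mdx minus BL10 (log2) at 2 weeks against the same difference at 5 days for each of the 15000 genes tested; purple points are the 28 genes whose difference was called unequal between the ages, and the diagonal marks equal differences. Most purple points lie far from 0 along the 5-day axis and near 0 along the 2-week axis, as for Myh4 at -2.15 and -0.03.

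Promoter sequences show which of these 28 genes carry motifs of muscle transcription factors. RefSeq's mouse table (GRCm38.p6) holds promoters of 22 of the 28 genes, and the 250 bases before each start site were searched on both strands for 3 motifs that read alike on either strand. These were CAGCTG, an E-box of the kind that MyoD family factors bind, the MEF2 motif, and the CArG box of serum response factor. CAGCTG was found in 3 of the 22 genes and in 13% of all 32851 promoters of that length, MEF2 in 2 genes and 2.92%, and CArG in 1 gene and 1.47%. A gene was counted if any of its promoters had a match, whereas the percentages count single promoters, so they are not like measures. The genes shown are those with a match that were more positive at 2 weeks, in lower case 5′ to 3′ toward the start site, with the matches in capitals. A match describes these letters and is not evidence of binding. No match overlaps another.
Myh4 (chr11:67237562-67237811, plus strand): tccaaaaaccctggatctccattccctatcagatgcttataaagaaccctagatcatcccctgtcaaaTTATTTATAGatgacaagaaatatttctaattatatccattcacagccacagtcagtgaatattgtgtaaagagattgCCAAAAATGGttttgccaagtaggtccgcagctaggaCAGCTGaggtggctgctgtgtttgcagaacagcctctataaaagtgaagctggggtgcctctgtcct
Rpl3l, first start site (chr17:24727576-24727825, plus strand): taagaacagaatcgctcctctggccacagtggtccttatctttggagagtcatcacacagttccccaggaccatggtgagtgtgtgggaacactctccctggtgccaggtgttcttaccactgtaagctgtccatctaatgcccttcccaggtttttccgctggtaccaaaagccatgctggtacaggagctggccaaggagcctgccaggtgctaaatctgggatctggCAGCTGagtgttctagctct
Rpl3l, further start site (chr17:24732435-24732684, plus strand): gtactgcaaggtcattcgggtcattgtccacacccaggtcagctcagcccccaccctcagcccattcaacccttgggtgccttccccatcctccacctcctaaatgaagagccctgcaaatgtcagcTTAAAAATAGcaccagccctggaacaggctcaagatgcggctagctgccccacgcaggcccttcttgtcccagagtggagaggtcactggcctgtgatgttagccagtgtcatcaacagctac
Ckmt2 (chr13:91876886-91877135, minus strand): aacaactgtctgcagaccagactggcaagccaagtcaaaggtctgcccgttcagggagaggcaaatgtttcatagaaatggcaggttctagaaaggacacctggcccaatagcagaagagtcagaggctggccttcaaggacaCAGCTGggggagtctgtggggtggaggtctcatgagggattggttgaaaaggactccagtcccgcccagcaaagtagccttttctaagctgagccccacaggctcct
In Myh4 the 3 motifs stand in the order MEF2, CArG and CAGCTG, with their first bases at -182, -104 and -67 relative to the start site. In Rpl3l the CAGCTG begins at -20 from the first start site and the MEF2 motif at -123 from the further one, and in Ckmt2 the CAGCTG begins at -107.

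The strain difference at 3 weeks was set against that at 2 weeks in the same way, and it differed for 20 genes (0.133%), 4 more positive at 3 weeks (0.0267%) and 16 more negative (0.107%), all at a limma adjusted p of 0.0498. Without mdx at 2 weeks replicate 3 none of the 20 was called, and the count was also 0 under several other settings. It was 327 without mdx at 3 weeks replicate 1, the array that lay with 2 weeks on the growth axis, and 278 without BL10 at 3 weeks replicate 2. The more negative genes were close to BL10 or above it at 2 weeks and below it at 3 weeks. Got1, one of the genes nearest to the threshold at 2 weeks, read 11.99, 11.85 and 12.04 in BL10 and 11.57, 11.29 and 11.08 in mdx at 3 weeks, so its difference moved from 0.91 to -0.65, by -1.55 ± 0.28. Ghitm moved from 0.66 to -0.28. Slc38a3, a glutamine transporter, was called at both steps: its strain difference was -1.21 at 5 days, 0.63 at 2 weeks and -1.29 at 3 weeks.

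In several of the 20 genes BL10 replicates 1 and 2 at 2 weeks were lower than replicate 3. Ccl28, an epithelial chemokine, read 6.27, 6.27 and 7.80 in BL10 and 6.98, 7.43 and 7.82 in mdx at 2 weeks, and 8.35, 8.04 and 7.89 in BL10 and 6.41, 6.80 and 6.61 in mdx at 3 weeks. Zdhhc14, a palmitoyl transferase, read 6.48, 6.68 and 8.32 in BL10 and 8.71, 7.66 and 8.20 in mdx at 2 weeks, and moved by -2.71 ± 0.51. Tufm, the mitochondrial elongation factor, moved from 0.15 to -1.20. Of the 4 that were more positive, Lst1, a leukocyte gene, read 5.44 to 6.58 in all 6 arrays at 2 weeks and 6.31, 6.99 and 7.38 in mdx against 4.77 to 5.31 in BL10 at 3 weeks. Txn1 moved from -0.47 to 0.61, by 1.09 ± 0.22.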

How the data were processed

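Quadriceps RNA of 24 samples, 3 in each of 8 groups, was measured on Affymetrix arrays. The authors deposited linear intensities made with PLIER, per the submitters' processing notes; its version and settings are not given in the sources used here. Of 45101 probe sets, 64 controls were left out, and 34945 carried 1 gene symbol in GEO's platform annotation, 932 several and 9160 none. Values below 0 were set to 0, quantile normalized and taken as log2(intensity + 16), and each gene was read from its probe set with the highest mean. The 15000 genes above the 40th percentile on at least 3 arrays were fitted in limma 3.58.1 (R 4.3.3), with group means over all 24 arrays (16 residual degrees of freedom, 5.15 prior), Benjamini-Hochberg adjustment and two-sided p-values, called at an adjusted p under 0.05. An exact permutation test of 3 against 3 arrays cannot go below 0.1. Scripts were tested on simulated data, and Python 3.11.15 with matplotlib 3.10.9 made the figures.

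The members and the 39 gene lists were chosen with earlier results of these data known, so lists are described by counts and medians beside those of all genes. Named genes are the dystrophin complex, the 12 genes above and 12 below BL10 with the smallest p and no overlap, up to 5 genes a list by p, and the largest called genes of the other comparisons, with further called genes and array markers added after their values were seen. Alternatives covered scaling, added constant, filter, probe set rule, variance model, array weights, arrays fitted, replicate block, sex, single arrays and threshold. Same-numbered arrays of the 2 strains at 2 weeks deviated together for replicates 1 and 3 but not 2 (r = 0.266, 0.227 and -0.154 across genes). BL10 replicate 1 with mdx replicate 3 gave -0.270, and BL10 replicate 3 with mdx replicate 1 gave -0.318. The titles name no pairs, so the numbers were not taken as pairs in the main fit, and the replicate block is an alternative.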

Additional observations from a re-analysis of the deposited data

Results flagged for a closer look

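The strain difference differed between 2 weeks and 5 days for 28 genes, by a test of the difference itself in limma. More positive at 2 weeks on the log2 scale were Aqp4 (2.69), Hspa1l (2.62), Rpl3l (2.26), Myh4 (2.12), Ankrd23 (2.11) and Abra (2.10). Smaller moves in that direction were those of Phyh (1.93), Slc38a3 (1.84), Hspb6 (1.79), Scn4b (1.77), Eef1a2 (1.68), Bpgm (1.42), Rgs5 (1.39), Adk (1.23), Rftn1 (1.20) and Ckmt2 (0.86). Phyh starts the breakdown of branched fatty acids, Scn4b is a sodium channel subunit, and Bpgm makes the bisphosphoglycerate that tunes haemoglobin. More negative at 2 weeks were Cyp4f15 (-3.13), Egfbp2 (-2.60), Sry (-2.34), Ahcy (-1.97), Igfbp2 (-1.62), Khdrbs2 (-1.20) and Mrpl57 (-1.05). Both Cyp4f15 and Sry had BL10 arrays at the floor at 5 days.

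The strain difference differed between 3 weeks and 2 weeks for 20 genes by the same kind of test. More positive at 3 weeks were Prg3 (2.19), an eosinophil granule protein, Lst1 (2.13), Eftud2 (1.31) and Txn1 (1.09). More negative were Krtap5-1 (-3.17), Cenpb (-2.97), Nutm1 (-2.71), Zdhhc14 (-2.71), Mob2 (-2.21), Ccl28 (-2.12), Slc38a3 (-1.92), Cx3cl1 (-1.86), Gfm2 (-1.79), Got1 (-1.55), Stk11 (-1.38), Tufm (-1.35) and Ghitm (-0.94). Got1, Ghitm, Tufm and Gfm2 act in mitochondria or in exchange with them. Nutm1 read at the floor of 4 in BL10 at 2 weeks replicate 1 and in mdx at 3 weeks replicate 2, so the size of its move is uncertain.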

How the results depend on the processing

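The count of 0 genes for mdx against BL10 at 2 weeks became 9 with every probe set, 13 with probe sets averaged per gene, 537 with array weights, 2 with the replicate block, 2 without both arrays whose Dmd goes against the label (replicate 3 of mdx at 2 weeks, replicate 2 of BL10 at 3 weeks), and 23 at an adjusted p under 0.1. Leaving out single arrays gave 0 to 919, the highest without BL10 replicate 3. The 28 genes that differed between 2 weeks and 5 days became 45 with values as deposited, 45 with a filter at the 60th percentile, 67 with every probe set, 43 with the mean of probe sets, 236 with array weights, 3 with the arrays of those ages alone, 47 with the replicate block, 6 with sex as a covariate (which marks BL10 at 5 days replicate 1 alone), 18 without both contrary arrays and 81 at an adjusted p under 0.1. Leaving out single arrays gave 4 to 492, the lowest without BL10 at 2 weeks replicate 1 and the highest without its replicate 3; it was 161 without mdx at 5 days replicate 1 and 6 without mdx at 2 weeks replicate 3. The 20 genes that differed between 3 weeks and 2 weeks became 0 with values as deposited, median centring, an added constant of 1, no filter, no intensity trend, the arrays of those ages alone, sex as a covariate, or without both contrary arrays. They became 51 with a constant of 64, 45 with the 60th percentile, 242 with every probe set, 7 with the mean of probe sets, 378 with array weights, 204 with the replicate block and 288 at an adjusted p under 0.1. Leaving out single arrays gave 0 to 1051, the highest without BL10 at 2 weeks replicate 3. Nos1 reversed to -0.11 with a constant of 1; Utrn to 0.058, Sdha to -0.057 and Atp5a1 to -0.20 with the mean of probe sets; Ucp1 to 0.69 without mdx replicate 3; Mmp9 to -0.19 and Mpo to -0.15 without mdx replicate 1. Leaving out single arrays gave -3.15 to 0.69 for Ucp1, -0.19 to 2.32 for Mmp9 and -0.15 to 1.65 for Mpo. Over the named genes 2708 results kept direction and side of the threshold, 132 passed it newly, 365 no longer passed it and 8 reversed; 729 list medians stayed within the spread of the arrays and 51 did not. The cause of these changes was not tested.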
